A study of Bos taurus and Ovis aries and Capra hircus with 27 samples.

Results

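Goat DEAD and DEAH box helicases were picked out among the goat gene models by their protein sequence. A model was a member when its deposited protein held D, E, then A or H, then D or H, followed after 20 to 45 residues by the letters SAT, and when its identifier carried no copy suffix. The rule found 33 of the 22131 models in the goat expression table, of which 17138 had both a protein and no copy suffix. All 33 spelled the box as DEAD (25 models) or DEAH (8 models), and 0 models with a copy suffix matched. The rule used no expression values, though it was chosen with earlier results of these data known. The identifiers were matched to no gene symbol here (0 of 22131 in the reference gene table), so members are given by identifier and described by their sequence.

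DEAD and DEAH box proteins are enzymes that use the energy of ATP to separate RNA strands or to strip proteins from RNA. They take part in nearly every step of the life of a messenger RNA, from splicing and export to the start of translation and decay, and in the building of ribosomes. The ATP is held by motif I and by motif II, the box itself. Motif III, the SAT letters, ties ATP use to unwinding, and motif VI closes the ATP pocket from the far side of the enzyme. DEAD box proteins mostly open short duplexes, while DEAH box proteins, known above all from the spliceosome, pull on a single strand.

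Messenger RNA of heart, liver and kidney was measured in 3 goat libraries per tissue, 9 in all. Per the labels, the goats were indigenous animals of about 3 years from Ya'an in Sichuan province, with no treatment given. The study's methods describe 3 unrelated adult females per population, with all tissues taken from these animals. By that account the 9 libraries come from 3 goats. The cattle and sheep libraries of the series were not used here, because their models were not matched to goat. The labelled tissues were not checked against defining markers, since those are known by symbol. In bulk tissue, fewer cells of a type and less RNA per cell cannot be told apart.

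Values are FPKM, fragments corrected for transcript length and for how many fragments of a library were mapped, so levels of different members can be set side by side per length. The deposited table held no counts, and the depth behind each value is unknown. Summed FPKM ranged from 574638 to 828807 per library, and was 808954 or more in every heart library. By the median model, kidney stood apart in scale. Over 11910 models above 0 in all 9 libraries, the median ratio of a library to the geometric mean of all libraries was 0.774 to 0.941 in heart, 0.648 to 0.904 in liver and 1.29 to 1.515 in kidney. The median log2 difference of all tested models was accordingly −0.55 for heart against kidney, −0.69 for liver against kidney and 0.10 for heart against liver. Dividing each library by that median ratio brought these medians to −0.04, −0.01 and −0.04. Member results are therefore given for the deposited values and after this median ratio scaling.

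The sequences split the members by more than the letter that names the box. Motif I, searched as G, any residue, G, K and then S or T, lay before motif II in 23 DEAD members and in all 8 DEAH members. This motif occurs in 3.46% of the 17138 proteins. In 22 of those 23 DEAD members motif I began 101 to 120 residues before the box, and in the DEAH members 94 to 100 residues before it. The exception was GOAT_ENSP00000328690, with 237 residues. The gap from the box to SAT was 27 to 33 residues in these 31 members, and 15 of them had 27.

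Motif VI told the families apart in every member that carried it. Searched as H, R, any residue, G, R, any residue, G or A, R, it was present in 21 of 23 DEAD members and in 0 of 8 DEAH members. The same expression with Q in place of H was present in 8 of 8 DEAH members and in 0 DEAD members. Each form is rare among all proteins, at 0.169% and 0.093%. The letters PTREL or PTYEL, which occur in 0.175% of proteins, stood in 20 of 23 DEAD members, and TQPRR, in 0.093% of proteins, in 5 of 8 DEAH members. The residue after the box was R in 15 of 23 DEAD members and E in 7 of 8 DEAH members.

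The families also differed in size. DEAD members with motif I were 395 to 1028 residues long, with a median of 621, and DEAH members 638 to 2042, with a median of 969.5. The shortest proteins with motifs I and VI were GOAT_ENSP00000293831 (400 residues) and GOAT_ENSBTAP00000019596 (408 residues), which hold little beyond the helicase core. GOAT_ENSBTAP00000004645 and GOAT_ENSBTAP00000004644 were as short, but their models end 151 residues after the end of motif II, before any motif VI.

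**Figure D1:**
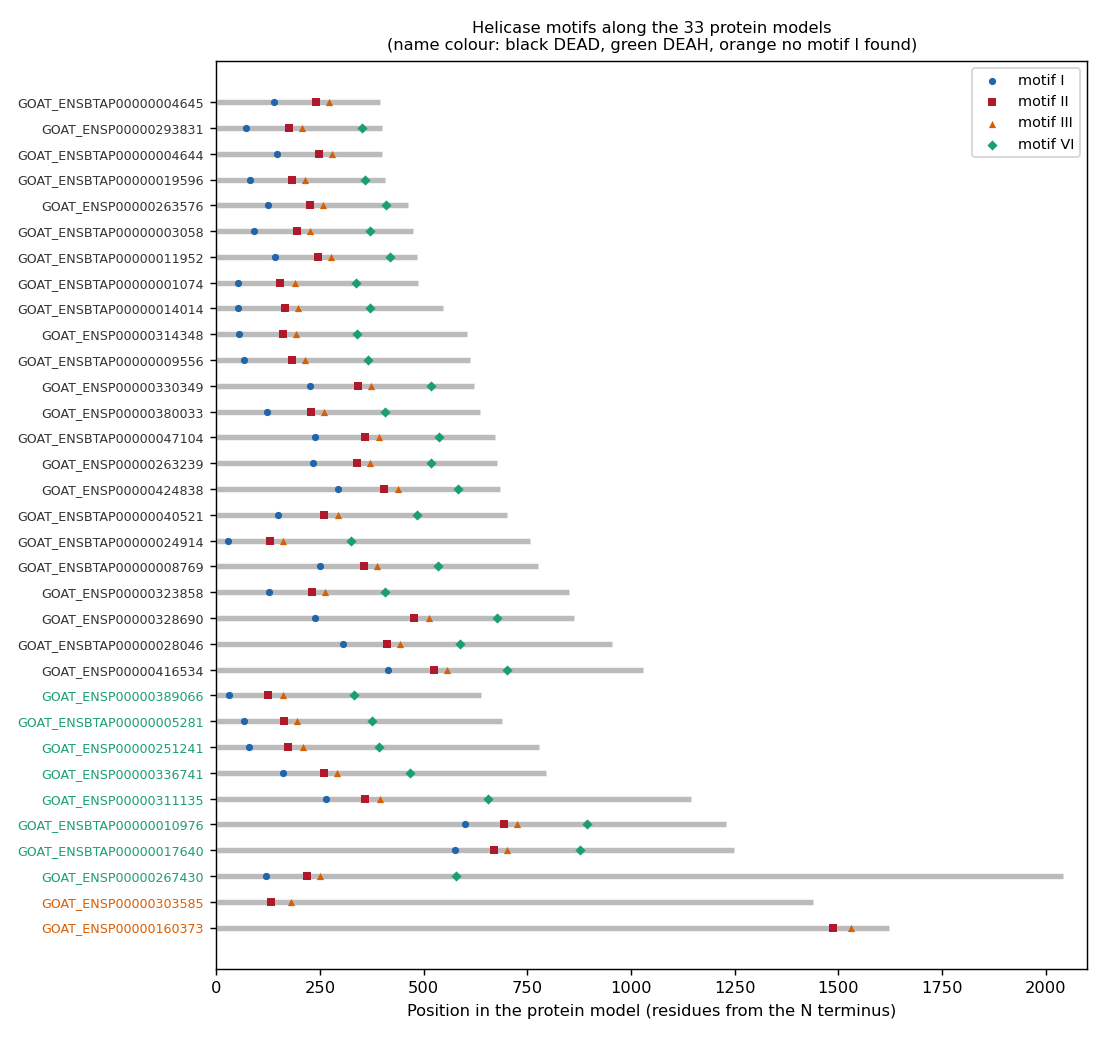
Positions of motifs I, II, III (SAT) and VI along the 33 protein models, in residues from the N terminus, with each model's length as a grey bar. Motif I stands 94 to 120 residues before motif II in 30 of the models, and the 2 models at the bottom carry motifs II and III only.

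Of the 33 members, 2 met the rule without looking like helicases. GOAT_ENSP00000303585 (1438 residues) and GOAT_ENSP00000160373 (1622 residues) had neither motif I nor motif VI. Their gaps from the box to SAT were 44 and 39 residues, the widest of all members. The first carried the letters GKNDG at 2 places, the signature of the CAP-Gly domain by which some proteins hold on to microtubules. These letters were found in 0.047% of all proteins. In the second the box began only at residue 1487. The label helicase is thus not borne out by their sequence, and the main counts in the deposited values are also given for members with motif I, 31 in all. Just outside the rule lay 4 proteins, in which SAT followed a box after 17, 56, 3 and 61 residues.

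Members with similar sequence may share reads. Among all pairs of members, 2 had proteins that were at least 70% identical. GOAT_ENSBTAP00000004645 and GOAT_ENSBTAP00000004644 shared 366 of 390 aligned residues (92.7% of the shorter protein), and GOAT_ENSBTAP00000019596 and GOAT_ENSP00000293831 shared 363 of 400 (90.8%). The next pair, GOAT_ENSBTAP00000004645 and GOAT_ENSP00000263576, reached 64.3%. How reads that fit both members of a pair were shared out is not given in the sources used here, so the split within each pair is uncertain.

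By the headers of the deposited proteins, the first pair lies in tandem on the minus strand of scaffold 1217. GOAT_ENSBTAP00000004645 spans 1122743 to 1138591 and GOAT_ENSBTAP00000004644 spans 1149453 to 1171198, which leaves 10861 bases between them. The second pair lies apart. GOAT_ENSBTAP00000019596 is on scaffold 519 from 2568496 to 2574160, and GOAT_ENSP00000293831 on scaffold 244 from 824693 to 828785, the shortest span of any member. The headers name no genome build. The 33 members were spread over 30 scaffolds.

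The members were broadly present. In all 9 libraries, 31 of 33 members (93.9%) exceeded 0.5 FPKM, against 43.6% of all models. The 32 members that exceeded it in at least 3 libraries entered the tests (97.0%, against 61.6% of all models). Their median mean level was 13.7 FPKM, beside 9.24 FPKM for all 13634 tested models. A 4-fold or larger span between the highest and the lowest tissue mean of FPKM + 1 was seen in 2 of 32 tested members (6.25%) and in 32.5% of all tested models. Those 2 were the members without motif I, so no tested member with motif I had such a span of FPKM + 1. Without the added 1, the scarce motif I member GOAT_ENSP00000263576 spanned 17.8-fold, from a mean of 0.0832 FPKM in heart to 1.48 in liver. The median span of FPKM + 1 was 2.06-fold in members and 2.7-fold in all tested models. No test was made of these shares.

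Level and size were only loosely related among members. Over the 33 members, Spearman's rho of mean log2(FPKM + 1) was −0.119 with protein length and −0.36 with the span of the model on its scaffold. These are descriptions across members measured in the same 9 libraries.

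The member with the highest level was GOAT_ENSBTAP00000019596, a DEAD box protein that is little more than a core, ranked 262 of all models by mean FPKM. It measured 434, 595 and 662 FPKM in heart, 217, 316 and 384 in liver and 376, 339 and 290 in kidney. All 3 heart libraries lay above every liver and kidney library.

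Its near-identical partner, GOAT_ENSP00000293831, came next among members, and was lowest where the first was highest. It measured 63.6, 85.3 and 97.6 FPKM in heart, 109, 150 and 272 in liver and 240, 327 and 355 in kidney. Heart was below both other tissues in every library, and liver library 3 fell within the kidney range.

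The next 2 DEAD members were abundant in every tissue. GOAT_ENSBTAP00000047104 measured 74.9, 96.8 and 114 FPKM in heart, 66.2, 118 and 139 in liver and 177, 211 and 235 in kidney. GOAT_ENSP00000380033 measured 93.6, 101 and 91.0 in heart, 90.5, 93.7 and 102 in liver and 238, 187 and 164 in kidney. In both, heart and liver overlapped and kidney was higher in every library.

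GOAT_ENSP00000336741, the highest DEAH member, measured 28.0, 28.7 and 24.2 FPKM in heart, 25.9, 35.0 and 45.3 in liver and 70.5, 74.2 and 66.0 in kidney. The DEAD member GOAT_ENSBTAP00000011952 was at nearly the same levels, with 25.7, 32.1 and 29.0 in heart, 24.2, 32.3 and 26.3 in liver and 76.4, 67.7 and 68.4 in kidney. GOAT_ENSBTAP00000040521 measured 22.4, 26.0 and 31.3 in heart, 31.6, 32.6 and 37.1 in liver and 38.9, 60.0 and 66.6 in kidney. Its 3 tissues did not overlap.

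The last of the 10 highest members showed the spread of the liver libraries. GOAT_ENSP00000328690 measured 11.5, 13.8 and 19.1 FPKM in heart, 14.9, 26.1 and 41.9 in liver and 20.6, 25.9 and 29.2 in kidney. GOAT_ENSP00000323858 measured 12.7, 14.4 and 17.7 in heart, 12.2, 18.8 and 29.5 in liver and 17.8, 22.0 and 29.5 in kidney. For both, liver libraries ran from the heart range to the top of the kidney range or above it. GOAT_ENSP00000416534, the longest DEAD member with motif I, was tighter, at 11.5 FPKM ± 0.651 in heart, 11.6 ± 1.3 in liver and 24.4 ± 3.58 in kidney (SD, n = 3 each).

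Mean levels of the DEAH members ran from 2.6 to 44.2 FPKM with a median of 4.95, and those of DEAD members with motif I from 0.349 to 402 FPKM with a median of 14.0. The families overlapped over most of this range, and no test was made between them.

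**Figure D2:**
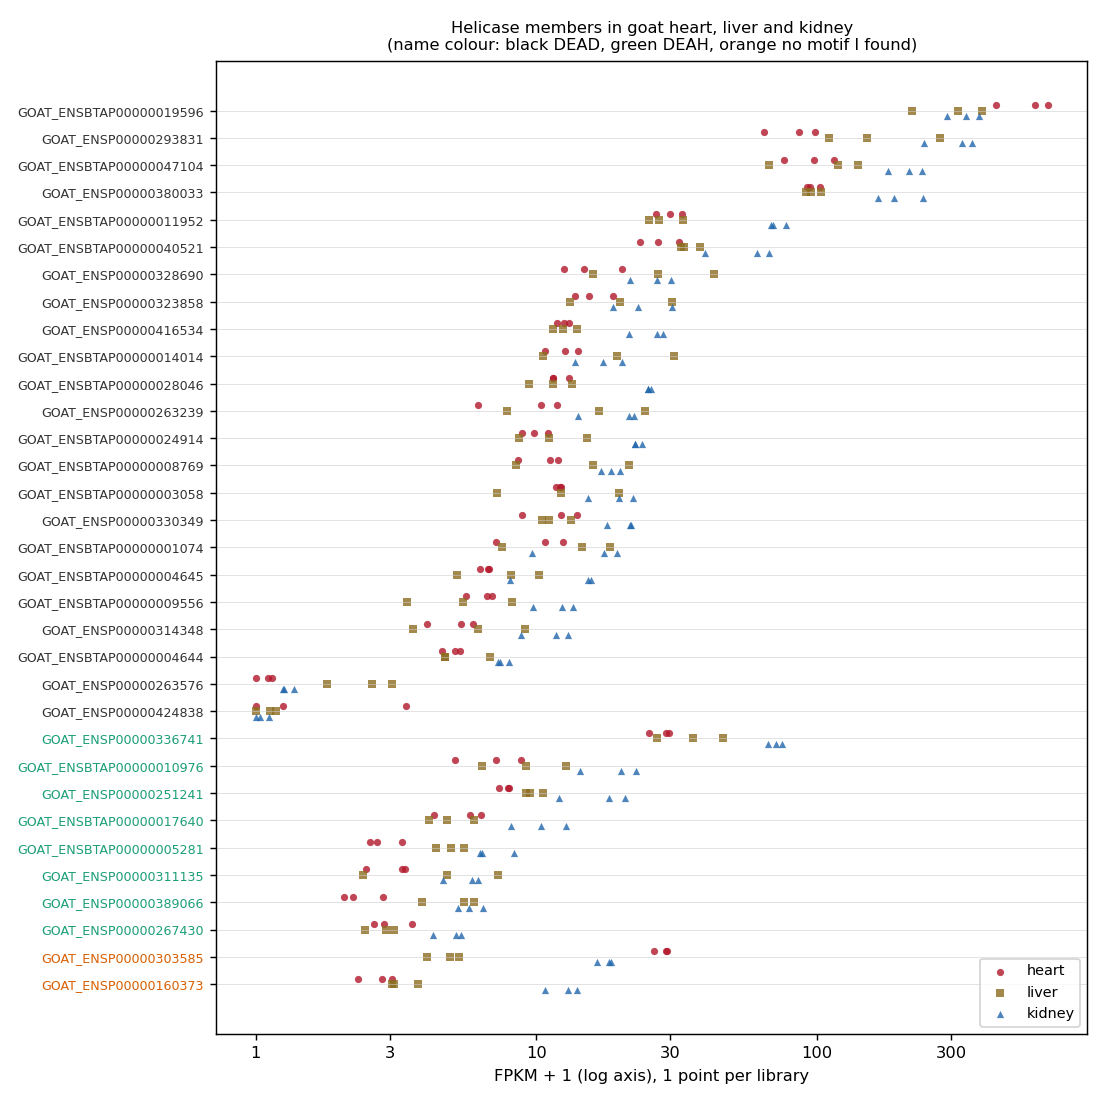
FPKM + 1 of each member in each of 9 goat libraries on a log axis, with DEAD members at the top, then DEAH members, then the 2 members without motif I. Kidney has the highest mean in 27 of the 33 members, and GOAT_ENSBTAP00000019596 and GOAT_ENSP00000303585 are those of the tested members with heart furthest to the right.

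Scarcely expressed members numbered 2. GOAT_ENSP00000263576 measured 0.106, 0.144 and 0 FPKM in heart, 1.6, 2.05 and 0.799 in liver and 0.252, 0.366 and 0.261 in kidney. Liver was highest in every library, at levels that remained low. Only the liver libraries exceeded 0.5 FPKM, so this member entered the tests through liver alone. GOAT_ENSP00000424838 was the member that passed no filter: it measured 0, 2.44 and 0.251 FPKM in heart, and between 0 and 0.179 in the other 6 libraries. Its value of 2.44 stands in a single heart library and was not tested.

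The spread between libraries of a tissue was widest in liver. The median coefficient of variation of the 32 tested members was 19.4% in heart, 29.1% in liver and 17.9% in kidney, and 13.2%, 22.7% and 15.3% after median ratio scaling. Library 1 was the lowest of its tissue for 23 of 33 members in heart, 27 in liver and 21 in kidney. It also had the lowest median ratio of its tissue over all models, at 0.774 in heart, 0.648 in liver and 1.29 in kidney. The share of all models lowest in library 1 was not counted, so these counts are not read as a trait of members.

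The pair GOAT_ENSBTAP00000019596 and GOAT_ENSP00000293831 was compared within each library, where the scale of the library drops out. In heart the first was 6.83, 6.98 and 6.79 times as abundant as the second. Liver gave ratios of 2.0, 2.11 and 1.41, and kidney ratios of 1.57, 1.04 and 0.815. Heart was thus far above both other tissues with hardly any spread, while liver 3 lay below kidney 1.

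On the log2 scale the ratio was 2.78 ± 0.02 in heart, 0.86 ± 0.31 in liver and 0.13 ± 0.48 in kidney (SD, n = 3 each). Heart exceeded liver by 1.92 and kidney by 2.64, each with p = 0.1 in a 2-sided exact permutation test, the smallest p that 3 libraries against 3 can give. Liver exceeded kidney by 0.72 (exact permutation p = 0.2). Adjusted over the 6 tests made on both close pairs, these became 0.3, 0.3 and 0.4 (exact permutation tests with Benjamini-Hochberg adjustment). The choice to run the ratio on pairs of similar protein was made after the sequences and values were seen.

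The tandem pair behaved otherwise. GOAT_ENSBTAP00000004645 was 1.47, 1.31 and 1.39 times as abundant as GOAT_ENSBTAP00000004644 in heart, 1.12, 1.91 and 1.58 in liver and 1.1, 2.26 and 2.1 in kidney. It was the higher of the pair in all 9 libraries. The log2 ratio was 0.48 ± 0.08 in heart, 0.59 ± 0.39 in liver and 0.79 ± 0.57 in kidney (SD, n = 3), and the tissues overlapped. No difference was detectable for heart against liver (exact permutation p = 0.7), heart against kidney (exact p = 0.4) or liver against kidney (exact p = 0.6).

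**Figure D3:**
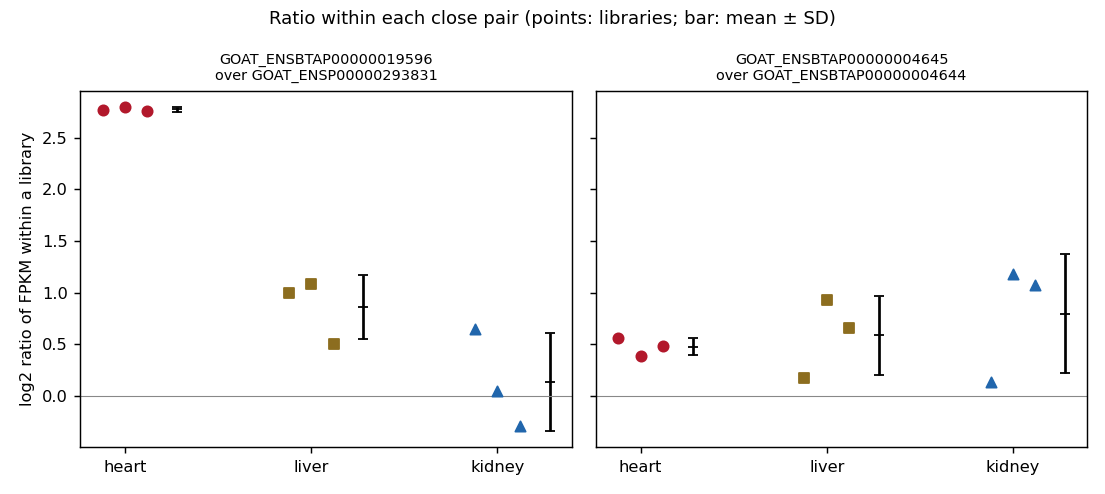
log2 ratio of FPKM between the members of each close pair, with 1 point per library and the mean ± SD of 3 libraries beside it. The first pair lies between 2.76 and 2.80 in heart and at or below 1.08 in all liver and kidney libraries, and the tandem pair lies above 0 in all 9 libraries with overlapping tissues.

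Heart against kidney asked which members differed between these tissues. In the deposited values, 24 of the 32 tested members (75.0%) passed the threshold, an adjusted p of 0.05 or less with limma over all 13634 tested models, beside 63.2% of all models. Of these, 22 were higher in kidney (45.3% of all models were) and 2 were higher in heart (17.9% of all models). The libraries of heart and kidney did not overlap for 30 of 32 members, and for 71.8% of all models. The median log2 difference of FPKM + 1 was −0.96 over members and −0.55 over all models. Among the 30 tested members with motif I, 21 were higher in kidney and 1 in heart.

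Most of these calls depended on how the libraries were scaled. After median ratio scaling, 11 members passed, 9 higher in kidney (29.1% of all models) and 2 higher in heart (29.0%). All 11 had passed in the deposited values with the same direction, and the other 13 calls were lost. For members the median log2 difference became −0.34, with −0.04 for all models. Quantile normalization gave 13 members (40.6%), beside 58.0% of all models. Scaling all libraries to the same sum instead gave 27 members (84.4%), beside 69.8% of all models, and all 27 were higher in kidney. Whether kidney truly held more messenger RNA of the 13 members whose calls were lost after median ratio scaling was not tested.

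Among DEAH members, 7 of 8 were higher in kidney in the deposited values and 4 of 8 were so under both scalings. In the deposited values 14 of 22 tested DEAD members with motif I and 45.3% of all models were higher in kidney. After median ratio scaling these were 4 of 22 and 29.1%. No test was made between the families. GOAT_ENSBTAP00000010976, a DEAH member, measured 4.11, 7.8 and 6.19 FPKM in heart and 13.3, 19.0 and 21.6 in kidney. Its log2 difference was −1.44 ± 0.31 (SE, limma adjusted p = 0.00292), and −0.81 ± 0.22 after scaling (adjusted p = 0.0116). GOAT_ENSP00000336741 differed by −1.35 ± 0.22 (limma adjusted p = 0.000537), and by −0.68 after scaling. In both, every kidney library was above every heart library.

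GOAT_ENSP00000389066, the shortest DEAH member, measured 1.23, 1.83 and 1.07 FPKM in heart, 2.9, 4.53 and 4.98 in liver and 4.25, 5.45 and 4.75 in kidney. Heart was the lowest tissue in every library. Its log2 difference between heart and kidney was −1.30 ± 0.22 (limma adjusted p = 0.000668), and −0.79 after scaling (adjusted p = 0.00421). GOAT_ENSBTAP00000005281, also DEAH, differed by −1.29 ± 0.19 (limma adjusted p = 0.000357), and by −0.74 after scaling.

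Among DEAD members the largest difference was that of GOAT_ENSP00000293831, the partner described above. It was lower in heart than in kidney by a log2 difference of −1.89 ± 0.34 (SE, limma adjusted p = 0.000986), and by −1.21 after scaling (adjusted p = 0.00195). GOAT_ENSBTAP00000019596 went the other way, by 0.74 ± 0.26 (limma adjusted p = 0.0336), and by 1.42 ± 0.21 after scaling (adjusted p = 0.000391). In the deposited values this last call rested on single libraries: without heart 2, heart 3, kidney 2 or kidney 3 the adjusted p was 0.0986, 0.117, 0.072 and 0.0964. The direction was the same under both scalings for both.

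The tandem pair was called in the deposited values but not after median ratio scaling. GOAT_ENSBTAP00000004645 differed between heart and kidney by −0.91 ± 0.32 (limma adjusted p = 0.0298), and by −0.30 after scaling (adjusted p = 0.321). GOAT_ENSBTAP00000004644 differed by −0.59 ± 0.19 (limma adjusted p = 0.0236), and by −0.01 after scaling (adjusted p = 0.945). Leaving out heart 1, heart 3, kidney 2 or kidney 3 ended either call, as did leaving out heart 2 for the first, with adjusted p up to 0.104 and 0.0717.

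Among the smaller called differences were those of GOAT_ENSP00000267430, a DEAH member and the longest of all members, and of the DEAD member GOAT_ENSBTAP00000008769. The first measured 1.64, 2.61 and 1.86 FPKM in heart and 4.17, 4.39 and 3.27 in kidney, and differed by −0.71 ± 0.19 (limma adjusted p = 0.00932) and by −0.20 after scaling (adjusted p = 0.442). The second measured 7.63, 10.2 and 10.9 in heart and 16, 17.5 and 18.8 in kidney, and differed by −0.81 ± 0.32 (limma adjusted p = 0.0474) and by −0.17 after scaling (adjusted p = 0.547). Its call was lost without liver 2 or without any single heart or kidney library, with adjusted p from 0.0629 to 0.146.

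Of the 10 highest members, 2 missed the threshold between heart and kidney and passed with the replicate number as a block. GOAT_ENSP00000328690 differed by −0.75 ± 0.35 (limma adjusted p = 0.0876, and 0.0107 with the block), and GOAT_ENSP00000323858 by −0.58 ± 0.31 (limma adjusted p = 0.134, and 0.018 with the block). After scaling their differences were −0.10 and 0.07, neither past the threshold.

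**Figure D4:**
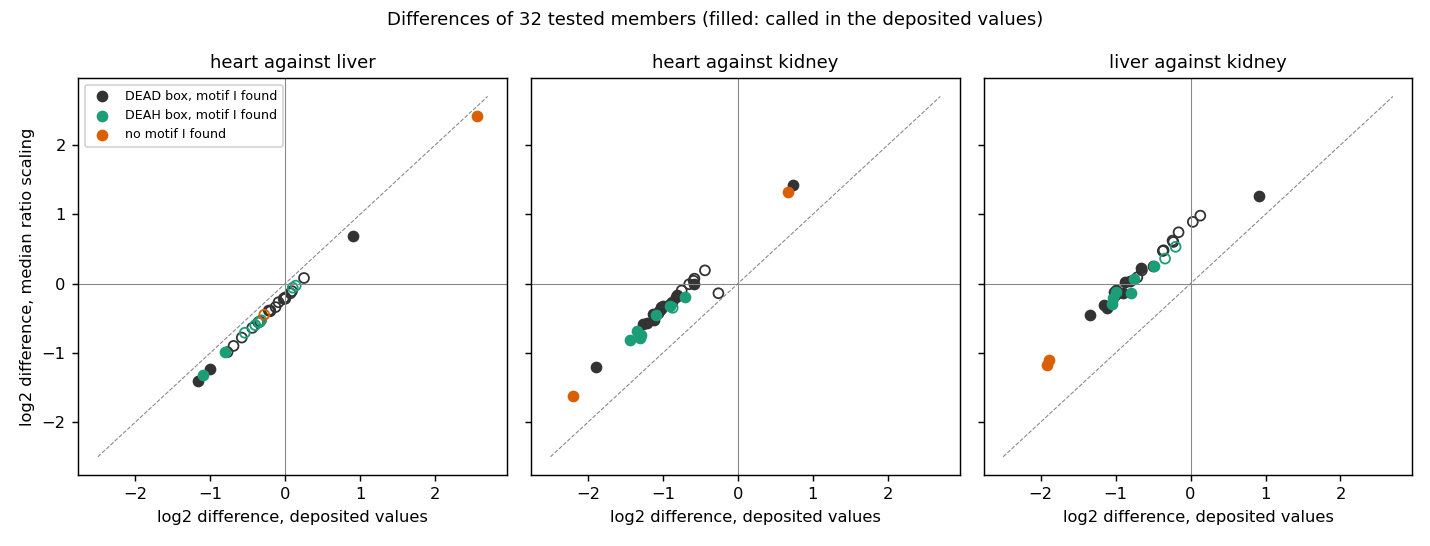
log2 difference of each of 32 tested members in the 3 contrasts, with deposited values on the horizontal axis and after median ratio scaling on the vertical axis, and filled points for members called in the deposited values. Members shift upward by a near-constant amount in both kidney contrasts, so that 13 and 18 calls there are lost, while points far from the rest keep their side of 0.

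Between heart and liver, 6 of 32 tested members passed in the deposited values (18.8%), beside 49.2% of all models. Of these, 2 were higher in heart (29.6% of all models) and 4 in liver (19.6% of all models). Among the 30 tested members with motif I, 1 was higher in heart and 4 in liver. Both counts of 4 include GOAT_ENSP00000263576, which had passed the filter through liver alone. The libraries of heart and liver did not overlap for 8 of 32 members, and for 58.5% of all models. The median log2 difference was −0.25 over members and 0.10 over all models. The member median rested on single libraries, at −0.15 without heart 1, −0.42 without liver 1 and −0.02 without liver 3.

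After median ratio scaling 14 members passed, with 2 higher in heart (27.0% of all models) and 12 in liver (26.8%). All 6 earlier calls were among them with the same direction. Scaling all libraries to the same sum gave 16 of 32 members (50.0%) and also 50.0% of all models. Leaving out liver library 1 gave 11 members (34.4%), beside 49.1% of all models. For members the median log2 difference was then −0.43, with −0.04 for all models.

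Among the members higher in liver were 2 DEAH members. GOAT_ENSP00000389066 differed by −1.10 ± 0.22 (limma adjusted p = 0.0023), and GOAT_ENSBTAP00000005281 by −0.80 ± 0.19 (limma adjusted p = 0.00738). The latter measured 2.33, 1.71 and 1.55 FPKM in heart, 3.4, 4.51 and 3.96 in liver and 7.32, 5.39 and 5.31 in kidney, with no overlap between any of the tissues. After scaling the differences between heart and liver were −1.32 and −0.99.

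The scarce DEAD member GOAT_ENSP00000263576 was higher in liver than in heart, by a log2 difference of −1.17 ± 0.20 (limma adjusted p = 0.000858) and by −1.41 after scaling. It passed the filter only through its liver libraries, so the filter itself favoured its calls for liver, which are no independent support. With values this close to 0, the added 1 makes the difference understate the change. GOAT_ENSP00000293831 was higher in liver by −1.01 ± 0.34 (limma adjusted p = 0.032), and by −1.23 after scaling (adjusted p = 0.00194). Without heart 1, heart 2, liver 2 or liver 3 the deposited call was lost, with adjusted p of 0.111, 0.0706, 0.0598 and 0.0855.

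GOAT_ENSBTAP00000019596 was higher in heart than in liver, by 0.90 ± 0.26 (SE, limma adjusted p = 0.0181) and by 0.68 after scaling (adjusted p = 0.0205). Leaving out heart 2, heart 3 or liver 1 raised the adjusted p to 0.0648, 0.073 and 0.0585. GOAT_ENSP00000328690, with the stretched motif spacing, was lower in heart by −0.77 ± 0.35 and did not pass (limma adjusted p = 0.0954). It passed after scaling, by −0.99 (adjusted p = 0.00959), and with the replicate number as a block (adjusted p = 0.0117).

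Liver against kidney resembled heart against kidney in the deposited values. Of 32 tested members, 21 passed (65.6%), against 65.0% of all models, which is close to the background. There were 20 higher in kidney (51.6% of all models) and 1 higher in liver (13.4%). The latter, GOAT_ENSP00000263576, had passed the filter through liver alone. Among the 30 tested members with motif I, 18 were higher in kidney and 1 in liver. The libraries of liver and kidney did not overlap for 19 of 32 members, and for 67.2% of all models. The median log2 difference was −0.78 over members and −0.69 over all models.

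After median ratio scaling the direction of the calls turned. There were 8, of which 6 were higher in liver (26.6% of all models) and 2 in kidney (25.3%). Only 3 of the 21 deposited calls remained, and none was called in the opposite direction. The median log2 difference of members was 0.05, with −0.01 for all models, and 15 of 32 members changed sign. Quantile normalization gave 12 calls (37.5% of tested members), beside 53.2% of all models. Scaling to the same sum gave 17 calls (53.1%, beside 63.8% of all models), of which 16 were higher in kidney.

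The 2 calls for kidney that remained were the members without motif I, described below, and the call for liver was the scarce GOAT_ENSP00000263576, at 0.91 ± 0.20 (limma adjusted p = 0.00281) and 1.27 after scaling. Of the DEAD members with motif I, GOAT_ENSBTAP00000011952 had the largest deposited difference, −1.34 ± 0.18 (limma adjusted p = 0.000184), and missed the threshold after scaling at −0.45 (adjusted p = 0.0641). GOAT_ENSBTAP00000028046 measured 8.4, 10.5 and 12.4 FPKM in liver and 24.0, 23.9 and 24.6 in kidney. It differed by −1.15 ± 0.18 (limma adjusted p = 0.000465), and by −0.31 after scaling (adjusted p = 0.0919).

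GOAT_ENSBTAP00000009556 measured 2.47, 4.48 and 7.19 FPKM in liver and 8.69, 11.3 and 12.5 in kidney. It differed by −1.12 ± 0.30 (limma adjusted p = 0.0087), and by −0.35 after scaling (adjusted p = 0.223). Kidney was above liver in every library of these 3 members in the deposited values. The smallest called differences turned sign with the scale. GOAT_ENSBTAP00000004644 went from −0.50 ± 0.19 (limma adjusted p = 0.0465) to 0.26 after scaling, and GOAT_ENSBTAP00000005281 from −0.49 ± 0.19 (limma adjusted p = 0.0477) to 0.25.

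GOAT_ENSBTAP00000040521 went from −0.66 ± 0.23 (limma adjusted p = 0.032) to 0.22, and GOAT_ENSP00000293831 from −0.88 ± 0.34 (limma adjusted p = 0.0434) to 0.02. None of these 4 passed after scaling, and each deposited call also rested on single libraries. GOAT_ENSBTAP00000004644 was lost without any library other than liver 3, GOAT_ENSBTAP00000005281 without any other than heart 1, GOAT_ENSP00000293831 without any other than liver 3 and kidney 1, and GOAT_ENSBTAP00000040521 without heart 2, liver 1, liver 2, kidney 2 or kidney 3. Without liver 1, for example, the adjusted p of these members was 0.12, 0.122, 0.149 and 0.0744.

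The DEAH member GOAT_ENSP00000251241 measured 8.45, 9.54 and 8.17 FPKM in liver and 19.6, 17.1 and 11 in kidney, and did not overlap. It went from −0.76 ± 0.22 (limma adjusted p = 0.0124) to 0.07 after scaling (adjusted p = 0.852).

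GOAT_ENSBTAP00000004645 did not pass between liver and kidney, at −0.71 ± 0.32 (limma adjusted p = 0.0732), and did with the replicate number as a block (adjusted p = 0.018). After scaling its difference was 0.09. The 5 members called after scaling alone were all higher in liver, and included GOAT_ENSBTAP00000019596 (0.74 ± 0.21, adjusted p = 0.015), GOAT_ENSP00000328690 (0.89, adjusted p = 0.0163) and GOAT_ENSP00000389066 (0.53, adjusted p = 0.031).

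**Figure D5:**
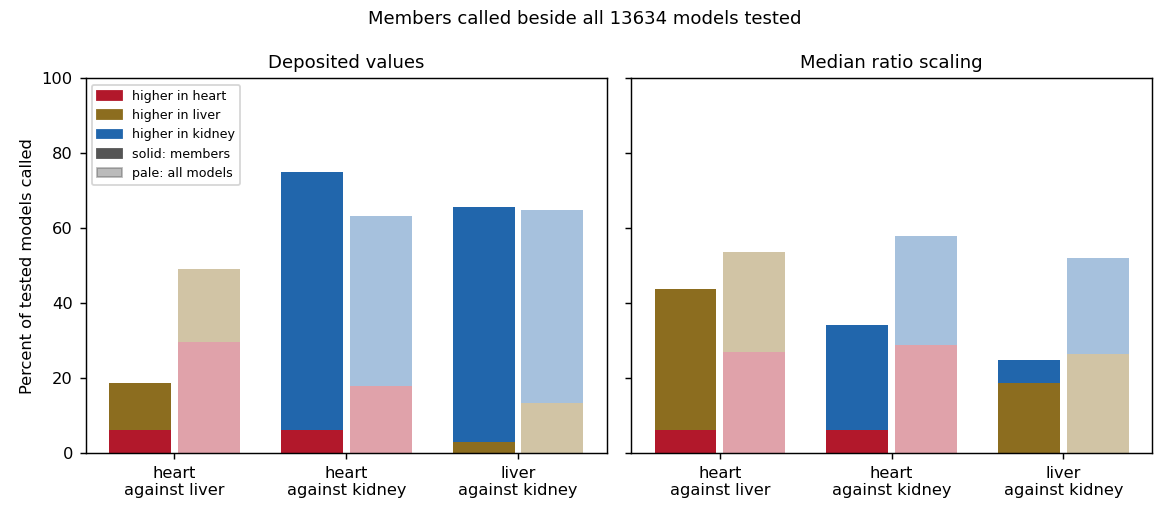
Percent of tested members (solid bars) and of all 13634 tested models (pale bars) called in each contrast, split by the tissue that was higher, for deposited values and after median ratio scaling. In heart against liver, 18.8% of members and 49.2% of all models are called in the deposited values, and 43.8% and 53.8% after scaling, while the kidney share in liver against kidney falls from 20 of 32 to 2 of 32 members after scaling.

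Members were also sorted by whether 1 tissue exceeded both others. In the deposited values 19 of 32 were higher in kidney than in both heart and liver (34.2% of all models), 2 in heart (14.5% of all models) and 1 in liver (9.59%). The 1 in liver was GOAT_ENSP00000263576, which passed the filter only through its liver libraries. Among the 30 tested members with motif I the counts were 18 in kidney, 1 in heart and 1 in liver. Leaving out kidney library 3 lowered the kidney count to 12 (30.3% of all models), and quantile normalization to 8 (19.4%). Scaling to equal sums gave 15 (38.6%). After median ratio scaling, 1 was higher in kidney (16.6% of all models), 2 in heart (19.5%) and 4 in liver (15.4%), and 5 were lower in heart than in both other tissues (6.51% of all models). Of those 5, 3 were among the 8 DEAH members and 2 among the 22 tested DEAD members with motif I.

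The 2 members elevated in heart were the same under both scalings, GOAT_ENSBTAP00000019596 and GOAT_ENSP00000303585. Quantile normalization left 1 (19.7% of all models) and scaling to equal sums left 0 (10.9%). Without heart 2, heart 3, liver 1, kidney 2 or kidney 3 the deposited count was 1, since the first lost a call. Of the 33 members, 25 had their lowest mean in heart, where 40.9% of all tested models were lowest, and 27 their highest in kidney, where 56.6% of all tested models were highest. After scaling 17 had their highest mean in liver (31.6% of all tested models), 13 in kidney (34.0%) and 3 in heart (34.5%).

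The 2 members without motif I had the largest tissue differences of any tested member above 1 FPKM throughout. GOAT_ENSP00000303585 measured 27.9, 28.1 and 25.3 FPKM in heart, 4.3, 3.08 and 3.94 in liver and 17.1, 17.5 and 15.4 in kidney. No tissue overlapped another. Heart exceeded liver by 2.56 ± 0.17 (SE, limma adjusted p = 2e-06) and kidney by 0.67 ± 0.17 (adjusted p = 0.00719), and by 2.42 and 1.32 after scaling.

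Its liver level was below kidney by −1.89 ± 0.17 (limma adjusted p = 1.5e-05), and by −1.10 after scaling. GOAT_ENSP00000160373 measured 1.82, 2.07 and 1.32 FPKM in heart, 2.78, 2.11 and 2.06 in liver and 12.9, 12.0 and 9.7 in kidney. Heart and liver overlapped, and kidney was several times higher in every library. It differed by −2.20 ± 0.19 from heart to kidney (limma adjusted p = 1.2e-05) and by −1.92 ± 0.19 from liver to kidney (adjusted p = 3e-05). After scaling these were −1.62 and −1.17, both with adjusted p under the threshold (0.000405 and 0.00308).

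Summed over all members, with or without motif I, their messenger RNA was a small part of the total. The 33 members together made up 0.112%, 0.144% and 0.152% of summed FPKM in heart, 0.124%, 0.173% and 0.213% in liver and 0.236%, 0.258% and 0.274% in kidney. Kidney was above both other tissues in every library. Heart minus kidney was −0.12 percentage points and liver minus kidney −0.0864 (2-sided exact permutation p = 0.1 each, the smallest possible). Heart minus liver was −0.0337, which was not detectable as a difference (exact p = 0.4). It was −0.0214 without heart 1, −0.0566 without liver 1, −0.0122 without liver 3 and −0.0156 without the 10 highest models of each library in the sum.

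Set against the median model above 0.5 FPKM in all 9 libraries, the order turned. The members' sum was then 117 ± 5.78 times that median in heart, 113 ± 13.9 in liver and 104 ± 6.16 in kidney (SD, n = 3 each). The differences gave exact permutation p = 0.8 for heart against liver, 0.1 for heart against kidney and 0.4 for liver against kidney.

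The most abundant pair dominated the sum. GOAT_ENSBTAP00000019596 and GOAT_ENSP00000293831 together held 54.6%, 58.2% and 60.3% of the members' FPKM in heart, 45.7%, 46.5% and 49.8% in liver and 40.3%, 40.7% and 39.8% in kidney. The tissues did not overlap in this share, which is free of the library's scale. Each of the 3 differences, 10.4, 17.4 and 7.08 percentage points, had an exact permutation p = 0.1, the smallest possible.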

How the data were processed

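Strand-specific (dUTP) messenger RNA libraries of goat heart, liver and kidney were analysed, 3 per tissue. Per the study's methods the authors mapped reads with TopHat to CHIR_1.0 and quantified genes with Cufflinks (2.2.1 per the labels' processing notes, which name UMD3.1 as the build). The authors deposited log2(FPKM + 1) per model and library, and FPKM was recovered from it. Members and their positions were read from the goat proteins that the authors deposited. The deposited heart columns bear other names than the labels and were matched by tissue and number. The study notes that the goat heart libraries are also deposited elsewhere.

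Models above 0.5 FPKM in at least 3 of 9 libraries were tested. limma 3.58.1 (R 4.3.3) was fitted to log2(FPKM + 1) of all 9 libraries with a mean per tissue and a mean-variance trend, and p-values were adjusted by Benjamini-Hochberg over 13634 models within each contrast, at 0.05. The fit was also run on simulated data with independent noise and neither a scale shift of libraries nor an effect of replicate number. That run does not bear on either feature. Shares and ratios were compared with 2-sided exact permutation tests in scipy 1.17.1. Proteins were aligned globally in Biopython 1.88 (BLOSUM62, gap penalties 11 and 1). Motif I was taken as the nearest match before the box. Values at 0 may be failed estimates. The labels do not tie libraries to animals, so p-values measure the spread between libraries, which may in part be technical.

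Alternatives were median ratio, quantile and equal-sum scaling, a pseudocount of 0.1, no filter or the study's filter, fits on 6 libraries, a minimum log2 difference of 1, a replicate block, and each library left out. Members named were the 10 with the highest mean, the 5 called members with the largest and the 5 with the smallest signed log2 difference in each contrast, those not tested, and pairs with at least 70% identity. The members and lists were chosen with earlier results of these data known.

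Deviations from the tissue mean correlated between libraries of the same number (r from 0.146 to 0.472, all 9 pairs above 0.1), so numbers were taken to pair the libraries. Libraries of different numbers had r from −0.417 to 0.134, so the lowest same-number value was little above the highest of these. Because deviations within a tissue sum to 0, positive r for some pairs forces negative r for others. The pairing by number comes from this check, not from the labels. By the study's methods the tissues were taken from the same goats. The main limma fits and the unpaired permutation tests did not use the pairing, and results of the paired fit are given at the end.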

Additional observations from a re-analysis of the deposited data

How the results depend on the processing

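How many calls for kidney remained depended on the scaling. Median ratio scaling gave 14 members called for heart against liver, 11 for heart against kidney and 8 for liver against kidney, and 4, 1 and 2 elevated in liver, kidney and heart. Quantile normalization gave 13 and 12 for the kidney contrasts and 1, 2 and 8 elevated in heart, liver and kidney (19.7%, 13% and 19.4% of all models). Equal sums gave 16 for heart against liver and 0 elevated in heart. For heart against kidney they gave 27 (84.4%, beside 69.8% of all models), all higher in kidney. They gave 17 for liver against kidney (53.1%, beside 63.8%) and 15 elevated in kidney (46.9%, beside 38.6%). A minimum log2 difference of 1 left 15 for heart against kidney (46.9%, beside 46.4% of all models) and 11 for liver against kidney (34.4%, beside 46.5%). It left 8 elevated in kidney (25.0%, beside 22.1% of all models), and 0 in heart (10.6% of all models) or liver (7.9%). Under the study's filter 0 were elevated in liver (6.15% of all models), because GOAT_ENSP00000263576 was then not tested. Without the 2 members lacking motif I (chosen after seeing the data), 1 was elevated in heart. With libraries left out, counts ran from 4 to 11 for heart against liver, 18 to 28 for heart against kidney and 15 to 22 for liver against kidney, from 1 to 2 elevated in heart and 12 to 20 in kidney. Of all models, the shares called in these contrasts then ran from 42.2% to 50.9%, 56% to 66.1% and 57.3% to 66.3%. Those elevated ran from 12.9% to 14.6% in heart and 28.9% to 35.7% in kidney.

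With the median model as denominator, the members' sum reversed to heart above liver by 4.17, heart above kidney by 13.5 and liver above kidney by 9.3. The log2 ratio of the tandem pair, which no test called, reversed to 0.0613 for heart against liver without liver 2 (range −0.320 to 0.0613) and to 0.00364 for liver against kidney without liver 1 (range −0.537 to 0.00364). Among the called members that the text names, those that reversed between liver and kidney were GOAT_ENSBTAP00000004644 (0.26 by median ratio and 0.25 by quantile scaling), GOAT_ENSBTAP00000005281 (0.25 and 0.24), GOAT_ENSBTAP00000040521 (0.22 by median ratio), GOAT_ENSP00000251241 (0.07 by median ratio) and GOAT_ENSP00000293831 (0.02 by median ratio). Between heart and kidney GOAT_ENSBTAP00000004644 reversed to 0.15 by quantile scaling. Why the scale differs was not tested.

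In the paired fit, with a replicate block, 8, 29 and 22 members were called in the 3 contrasts (in the order heart against liver, heart against kidney, liver against kidney), and no called member that the text names was lost. These were 25.0%, 90.6% and 68.8% of tested members, beside 56.5%, 69.3% and 70.9% of all models. For the members' share and for the ratio of the most abundant pair the paired test gave p = 0.25, the smallest exact permutation value for 3 pairs. Depth is unknown, so no limit of detection is given. The ratio planned for members named by symbol, the role lists and the tissue markers were not run, because no symbol was matched.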
